A study of Gallus gallus with 18 samples.

Results

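46 of the 17108 chicken genes in the deposited count tables had far more reads both in induced erythroid HD3 cells and in lymphoid DT40 cells than in proliferating HD3 cells. They were selected on the measured levels themselves. A member needed a mean of at least 5 CPM (reads on the gene per 1000000 reads on genes) in differentiated HD3 cells (HD3dif) and in DT40 cells, at least 4 times the level of proliferating HD3 cells (HD3pr) in each, and a DT40 level not more than 4 times below that of HD3dif. All 3 contrasts between the cell types therefore went into the choice, and the levels and folds of the members below are a description with no test.

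HD3dif cells were HD3 erythroblasts kept for 14 h at 42 °C in air with 20 µM iso-H-7, an isoquinolinesulfonamide, and 10 mM HEPES. DT40 is a lymphoid line from a bursal lymphoma that avian leukosis virus had induced in a Hyline SC chicken, and it was grown at 37 °C. HD3pr cells were the uninduced HD3 cells at 37 °C, in the same medium as DT40. HD3 itself is an erythroblast line transformed by avian erythroblastosis virus, used as a single clone (A6 of line LSCC), so both cell lineages stand on 1 transformed line each. Each cell type had 2 independent biological replicates of total RNA depleted of ribosomal RNA. Temperature, iso-H-7, HEPES and atmosphere changed together at induction, and their shares in any difference between HD3dif and HD3pr cannot be told apart.

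As background, red cell precursors leave the cell cycle late in their maturation, fill with globin and shut down most other genes under factors such as GATA1 and KLF1. Bursal B cells, from which DT40 arose, run another programme under PAX5 and EBF1. Both lineages arise from haematopoietic stem cells, and each keeps a large set of genes for signalling, transport and metabolism that is not restricted to it.

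The 6 libraries held 20100063 to 33433279 reads on genes, and 1 read was worth 0.0299 to 0.0498 CPM. Reads on genes made up 33.0 to 35.8% of all reads in HD3dif, 53.8 to 55.5% in DT40 and 44.4 to 46.2% in HD3pr. The count tables name genes by Ensembl identifier alone, and symbols could be attached through their counts to 27 genes of the chromosome 14 region that the study examined. One of these, HBZ (ENSGALG00000023740), encodes the embryonic alpha-type globin. Its symbol was attached by matching the labelled counts of the files with labelled values of the study and was not checked against an annotation, so its levels are no independent check of the labels. HBZ had 49.8 and 48.4 CPM in HD3dif, no read in either DT40 library and 5.89 and 4.47 CPM in HD3pr. The DT40 count of 0 allows up to 0.0483 CPM (3 counts over both libraries, counting error only). Among the cell types, this globin gene was thus highest in induced HD3 cells and was not detected in the lymphoid line, while defining markers of B cells were not checked here.

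The rule narrowed the genes in steps. In DT40, 7758 genes reached 5 CPM and 749 of them were also at least 4 times above HD3pr. In HD3dif, 8512 genes reached 5 CPM and 492 of them were at least 4 times above HD3pr. 46 genes met both pairs of limits, and the last limit, on the ratio of HD3dif to DT40, removed none of them. All 46 passed the filter on low counts (CPM above 1 in at least 2 libraries) that left 10898 genes for the test. No symbol could be given to any of the 46, so they are called members 1 to 46, in order of falling ratio of HD3dif to DT40, and the 2 at either end of that order are also given by identifier.

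These genes took several times more of the reads in HD3dif and DT40 than in HD3pr. Added over the 46 members, the level was 1085 and 1075 CPM in the HD3dif libraries and 1964 and 2031 CPM in the DT40 libraries, against 173.9 and 176.6 CPM in the HD3pr libraries. The replicates of each cell type lay close together. The rule put every member's mean in HD3pr below its means in HD3dif and DT40, so the low HD3pr sums restate the choice. The HD3dif sums lay below the DT40 sums. A few genes carried much of each sum. The 4 highest members held 47.9% of the summed mean level in HD3dif, 42.8% in DT40 and 54.9% in HD3pr. Mean levels of single members ran from 5.24 to 176 CPM in HD3dif with a median of 10.6, from 5.29 to 293.5 CPM in DT40 with a median of 20.4, and from 0.199 to 41.2 CPM in HD3pr with a median of 1.67. These levels are not divided by gene length, so they compare cell types for a gene and not genes with one another. In bulk samples, fewer cells that express a gene and less RNA of it per cell cannot be told apart.

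**Figure D1:**
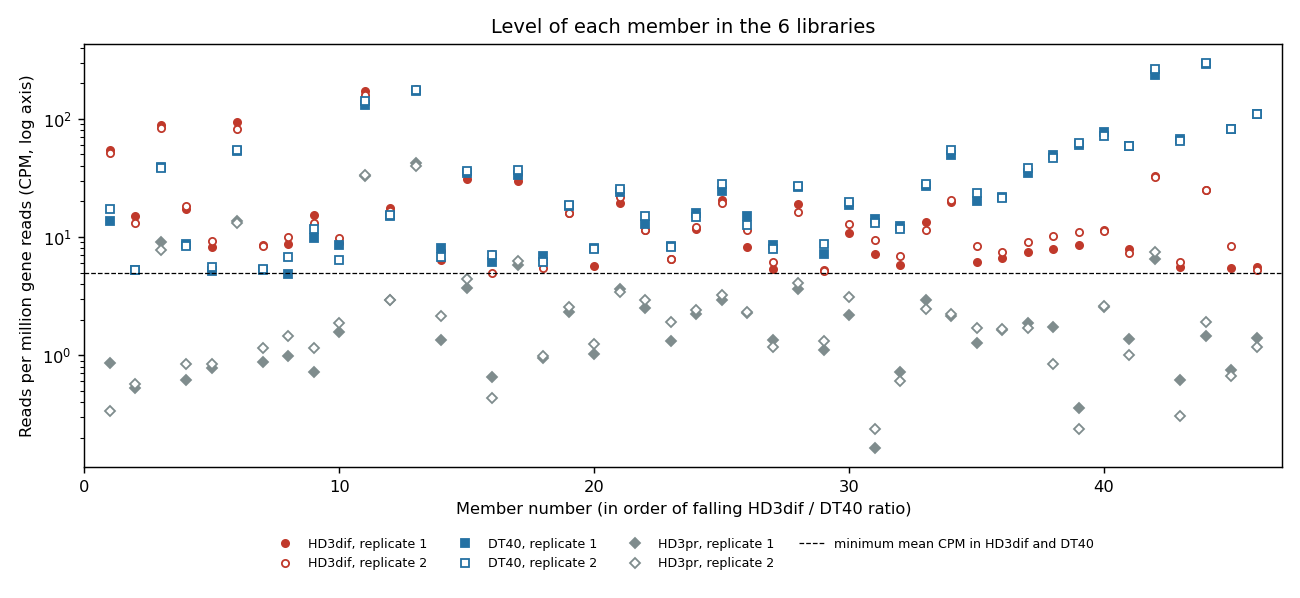
Level of each of the 46 members in the 6 libraries, in CPM on a log axis, with members ordered by falling ratio of HD3dif to DT40 (circles, HD3dif; squares, DT40; diamonds, HD3pr; filled for replicate 1 and open for replicate 2). The HD3pr points lie under those of the other cell types for every member, and the HD3dif and DT40 points cross over along the order and part widely at its right end, where member 46 had 5.57 and 5.28 CPM in HD3dif against 110.9 and 110.1 CPM in DT40.

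HD3pr was low but rarely silent for these genes. The mean HD3pr level was below 1 CPM in 12 members, between 1 and 5 CPM in 28 and above 5 CPM in 6. The lowest was member 31, with 7.21 and 9.52 CPM in HD3dif and 14.3 and 13.2 CPM in DT40, against 0.164 and 0.235 CPM in HD3pr. Those HD3pr values rest on 5 and 7 reads, and the 12 reads together give 0.199 CPM with an exact 95% Poisson interval of 0.103 to 0.347, which covers counting error only. 10 members had under 50 reads over both HD3pr libraries, and the median member had 100.5 reads there. At the other end, member 13 had 177.8 and 174.6 CPM in HD3dif and 173.7 and 177.2 CPM in DT40, against 42.2 and 40.3 CPM in HD3pr. Member 13 was thus well read in HD3pr and was 4.28-fold higher in HD3dif and 4.26-fold higher in DT40.

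The level in HD3dif was a median of 6.06 times that in HD3pr, with folds of 4.01 to 89.3. 16 members lay between 4- and 5-fold, 14 between 5- and 8-fold and 16 above 8-fold. In the edgeR quasi-likelihood fit, 43 of 46 members were called higher in HD3dif than in HD3pr (log2 fold change beyond 0.6 and Benjamini-Hochberg adjusted p below 1e-07), beside 12.0% of all tested genes, and members 14, 23 and 29 were not called. Because the rule used this contrast, nothing is read from that count. The same holds for the counts with a library left out, for which no share of all genes is given. The fitted log2 differences of HD3dif from HD3pr ran from 1.76 to 6.21 with a median of 2.35, while the median over all tested genes was 0.03. The SEs of the members ran from 0.051 to 0.299. Each SE, here and below, was worked back from the log2 difference and its test result and is only approximate. It can fall below counting error where reads are few. The SE of 0.299 belongs to member 31, whose 12 HD3pr reads alone leave a wider error. The calls rest on the adjusted p and the log2 limit, not on these SEs.

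The level in DT40 was a median of 8.09 times that in HD3pr, with folds of 4.00 to 206. 20 members exceeded 10-fold and 13 exceeded 20-fold in DT40, against 11 and 5 members in HD3dif. All 46 members were called higher in DT40 than in HD3pr, beside 18.3% of tested genes, a contrast the rule also used. The fitted log2 differences of DT40 from HD3pr ran from 1.87 to 7.53 with a median of 2.88, while the median over all tested genes was -0.08. Both contrasts divide by the same HD3pr libraries, so a low HD3pr count raises both folds of a gene at once. The DT40 fold was the larger one in 33 members and the HD3dif fold in 13, and both exceeded 8-fold in 13 members and 10-fold in 8.

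**Figure D2:**
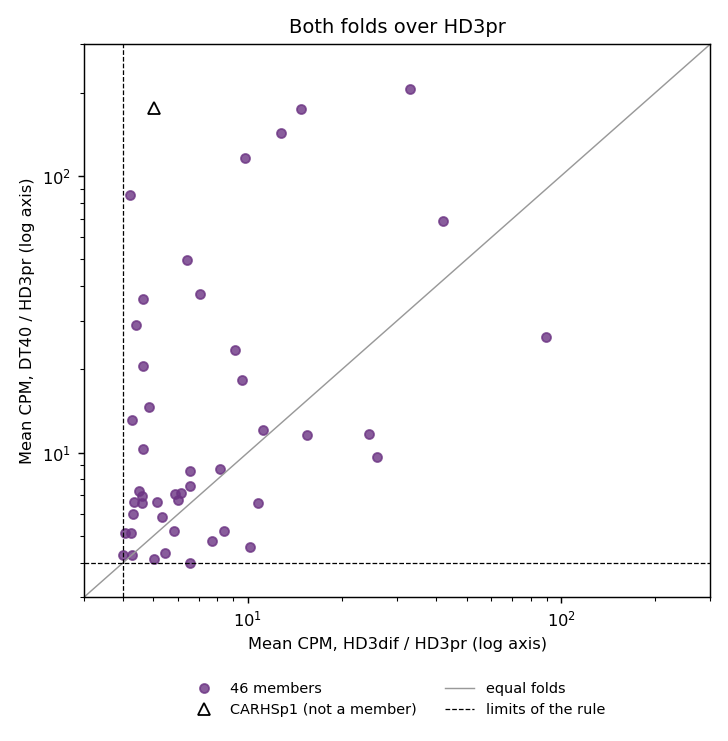
Ratio of mean CPM in HD3dif to HD3pr (horizontal, log axis) and in DT40 to HD3pr (vertical, log axis) for the 46 members (points), with the limits of the rule at 4 (dashed), the line of equal folds (grey) and CARHSp1, which is no member (triangle). Many members sit close to a dashed limit, 21 of them with at least 1 fold below 5, and 33 members lie above the line of equal folds. Both axes share the HD3pr libraries.

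Ranked by the smaller of their folds over HD3pr, members 31, 39, 1 and 44 came first. Member 31, with values given above, was 42.0-fold higher in HD3dif and 68.9-fold higher in DT40. Member 39 had 8.61 and 10.97 CPM in HD3dif and 60.1 and 62.7 CPM in DT40, against 0.360 and 0.235 CPM in HD3pr, ratios of the means of 32.9 for HD3dif and 206 for DT40. Member 1 was 89.3-fold higher in HD3dif and 26.1-fold higher in DT40. Member 44 had 24.8 CPM in both HD3dif libraries and 290.7 and 296.4 CPM in DT40, against 1.44 and 1.91 CPM in HD3pr, which makes 14.8-fold in HD3dif and 175-fold in DT40. In these 4 members the HD3pr libraries had 5 to 57 reads, with 26 and 10 reads in member 1. The replicates of HD3dif and of DT40 differed far less than either cell type did from HD3pr. These 4 members were picked for large folds over HD3pr, so nothing is read from that gap. In member 31 both HD3dif libraries, at 7.21 and 9.52 CPM, lay below the DT40 libraries, at 14.3 and 13.2 CPM. The fitted log2 difference of HD3dif from DT40 was -0.82 (SE 0.156). Unlike in members 39, 1 and 44, that difference was not called, which does not show that the levels were equal.

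The members differed widely in how far the level in induced HD3 cells came toward that of DT40. The ratio of HD3dif to DT40 had a median of 0.785 and ran from 0.0491 to 3.42. It lay between 0.5 and 2 in 28 members, above 2 in 4, between 0.25 and 0.5 in 4 and below 0.25 in 10. Set against the DT40 level, the median member stood at 78.5% in HD3dif and at 12.4% in HD3pr. The rule needed DT40 at least 4 times above HD3pr, so the HD3pr percentage was held low by the choice, with a maximum of 24.99%. The levels of 19 members in HD3dif and DT40 were within 1.5 times of each other. The rule bounded the ratio of HD3dif to DT40 above but not below.

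At the upper end, both HD3dif libraries exceeded both DT40 libraries in 12 members, beside 51.0% of tested genes. Member 1 (ENSGALG00000024357) had 54.4 and 51.6 CPM in HD3dif and 13.8 and 17.2 CPM in DT40, against 0.850 and 0.336 CPM in HD3pr. Its HD3dif fold over HD3pr was the top of the range, and its HD3dif libraries stood clear of the DT40 libraries, with ratios of 3.00 to 3.96 over the library pairs. Member 2 (ENSGALG00000007070) had 15.0 and 13.3 CPM in HD3dif and 5.29 CPM in both DT40 libraries, against 0.523 and 0.571 CPM in HD3pr. Member 3 had 88.8 and 84.1 CPM in HD3dif and 38.9 and 38.4 CPM in DT40, against 9.13 and 7.82 CPM in HD3pr. Members 1 and 3 were the 2 called higher in HD3dif than in DT40, with fitted log2 differences of 1.66 (SE 0.117) and 1.05 (SE 0.073), beside 27.3% of tested genes. Member 2 had a log2 difference of 1.30 (SE 0.155) and was not called. Over these 12 members the median fold over HD3pr was 9.29 for HD3dif and 5.21 for DT40. Both folds divide by the same HD3pr mean, so the order of these medians follows from how the 12 were grouped.

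In 6 members, numbers 13 to 17 and 20, the HD3dif and DT40 libraries overlapped, beside 6.02% of tested genes. Member 15 had 31.0 and 35.1 CPM in HD3dif and 34.6 and 36.2 CPM in DT40, against 3.70 and 4.40 CPM in HD3pr. Member 16 had 7.21 and 4.99 CPM in HD3dif and 6.13 and 7.09 CPM in DT40, against 0.654 and 0.437 CPM in HD3pr. For these members the libraries gave no order between induced HD3 cells and DT40, while HD3pr lay below both. With 2 libraries per cell type this does not show that the levels were equal. Over all members, 30 were not called in either direction between HD3dif and DT40, beside 45.6% of tested genes.

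At the lower end, both HD3dif libraries lay below both DT40 libraries in 28 members, beside 43.0% of tested genes. 14 members, numbers 33 to 46, were called lower in HD3dif than in DT40, with fitted log2 differences of -1.27 to -4.46. They made up 30.4% of the members, beside 27.1% of tested genes called lower, and these shares were close only at that limit. At an adjusted p below 0.05 without a fold limit, 30 of the 46 members were lower, beside 43.5% of tested genes. There 9 members were higher, beside 45.8%. The rule bounded 1 side of this contrast, so nothing is read from these shares. Member 46 (ENSGALG00000025937) had 5.57 and 5.28 CPM in HD3dif and 110.9 and 110.1 CPM in DT40, against 1.41 and 1.17 CPM in HD3pr. It stood at 4.91% of the DT40 level in HD3dif, and its 4.20-fold difference between HD3dif and HD3pr was close to the limit, while DT40 was 85.6 times above HD3pr. Member 45 (ENSGALG00000008436) had 5.47 and 8.44 CPM in HD3dif and 83.0 CPM in both DT40 libraries, against 0.752 and 0.672 CPM in HD3pr. Member 42 had 32.7 and 32.1 CPM in HD3dif and 235.4 and 265.5 CPM in DT40, against 6.57 and 7.42 CPM in HD3pr. These members were severalfold higher in HD3dif than in HD3pr and still far below DT40.

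The 10 members whose HD3dif level was under a ratio of 0.25 to DT40, numbers 37 to 46, formed the lymphoid-high end of the group. The share of all tested genes under that ratio is not given here. For the 10 members the folds were as follows. The median fold over HD3pr was 6.74 for HD3dif, with a range of 4.20 to 32.9, and 67.6 for DT40, with a range of 20.5 to 206. 7 of the 10 had fewer than 10 CPM in HD3dif, beside 23 of all 46 members. Over the 28 members with HD3dif below DT40 in every library, the median fold over HD3pr was 4.99 for HD3dif and 13.8 for DT40. In the 10 and in the 28 members alike, the larger DT40 median follows from how they were grouped.

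**Figure D3:**
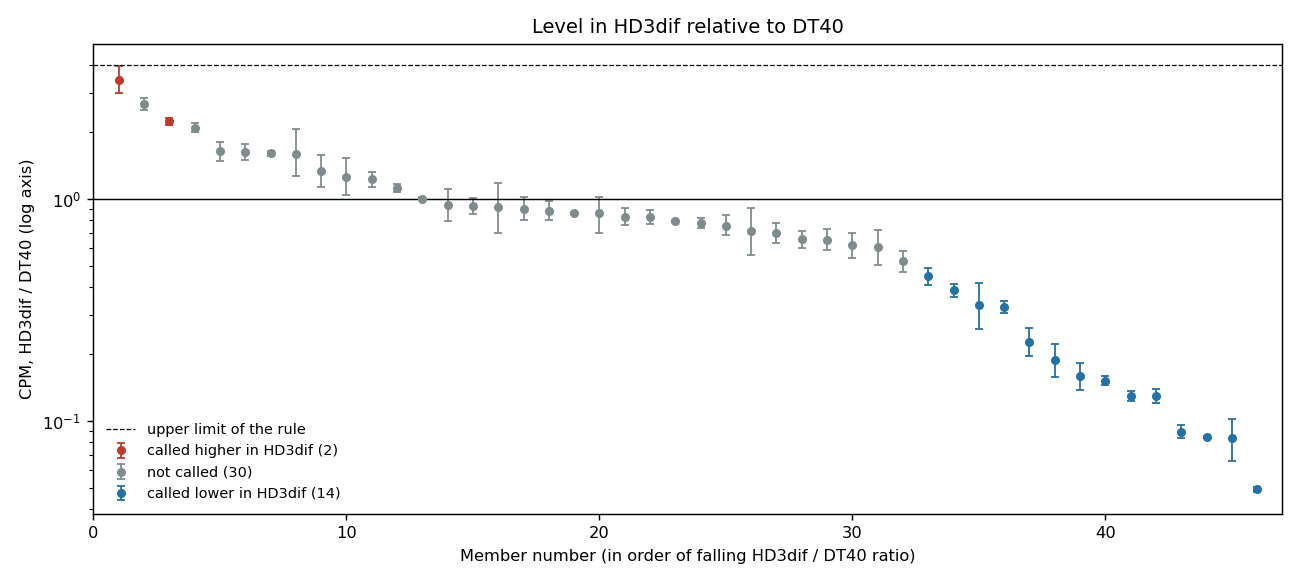
Ratio of HD3dif to DT40 for each member (log axis), as the ratio of mean CPM (points) with the lowest and highest ratio over the 4 pairs of libraries (bars), coloured by the edgeR call between HD3dif and DT40. Ratios fall from 3.42 at member 1 to 0.0491 at member 46, 12 bars lie above 1, 6 reach or cross 1 and 28 lie below 1, and the dashed line marks the upper limit of 4 that the rule set.

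Replicates of the members differed most in HD3pr, where their reads were fewest. The median absolute log2 difference between the 2 replicates of a member was 0.17 in HD3dif, 0.09 in DT40 and 0.24 in HD3pr, and the largest was 0.62 in HD3dif, 0.50 in DT40 and 1.34 in HD3pr. Genes within the members' range of levels differed between replicates by a median of 0.09 in HD3dif, 0.08 in DT40 and 0.15 in HD3pr. Those genes were not matched to the members in level, and most members lay toward the low end of the range. The comparison therefore does not show that members varied more than genes of like level. Every pair of libraries gave at least 4-fold in 36 members for HD3dif over HD3pr and in 41 members for DT40 over HD3pr, and the lowest pair of any member gave 2.99-fold for HD3dif and 3.17-fold for DT40. Thus some members close to a limit met it in the mean but not in each pair of libraries.

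Membership was also read within 1 replicate number at a time, with 1 library per cell type and no test. The limits of the rule had been set with all 6 libraries known, so neither set of replicates is independent of the choice. The rule applied to the replicate 1 libraries alone found 47 genes. In the replicate 2 libraries, 36 of the 47 met the whole rule again and all 47 were at least 3-fold above HD3pr in both cell types, with median folds of 6.04 for HD3dif and 7.51 for DT40. The replicate 2 libraries alone found 48 genes, of which 36 met the rule in the replicate 1 libraries, 44 were at least 3-fold and all 48 at least 2-fold above HD3pr in both cell types. Their median folds in replicate 1 were 5.47 for HD3dif and 8.90 for DT40. Of the genes found, 42 of the 47 and 40 of the 48 were among the 46 members. These members were chosen on the mean of both replicates, so nothing about membership is read from the counts that met the rule again.

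Genes lay on both sides of the minimum and fold limits. 220 genes missed only the HD3dif minimum, 192 only the HD3dif fold, 45 only the DT40 fold and 6 only the DT40 minimum. Most of the 220 and of the 192 were not close to the limit they missed. With a minimum of 2 CPM 95 genes met the rule, and with folds of 3 it was 93. Just inside the HD3dif minimum lay member 29 with a mean of 5.24 CPM in HD3dif, and just outside it a gene with 4.90 CPM. Just inside the HD3dif fold lay member 14 at 4.01-fold, and just outside it a gene at 3.996-fold. Just inside the DT40 fold lay member 6 at 4.00-fold, and just outside it a gene at 3.93-fold. Just inside the DT40 minimum lay member 7 with a mean of 5.29 CPM in DT40, and just outside it a gene with 4.11 CPM.

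None of the 27 named genes of the chromosome 14 region was a member, beside 46 of all 17108 genes. With members this rare, their absence among 27 genes says nothing about the region. A region gene was named only if it had at least 20 reads in the matched libraries, while 15054 of the 17108 genes had a read in any library. The shares of the 27 and of the 17108 are therefore not of like sets of genes. 5 of the 27 reached 5 CPM in HD3dif together with 4 times the HD3pr level, beside 492 of the 17108. In DT40, 1 of the 27 did so, beside 749 of the 17108. That gene was CARHSp1 (ENSGALG00000026113), which encodes an RNA-binding protein with a cold-shock domain. CARHSp1 had 4.58 and 3.87 CPM in HD3dif and 150.4 and 145.6 CPM in DT40, against 1.05 and 0.638 CPM in HD3pr. Its HD3dif level was 5.01 times and its DT40 level 176 times that of HD3pr, and it missed only the HD3dif minimum. CARHSp1 had the shape of the lymphoid-high members, with DT40 35.1 times above HD3dif. It was 1 of the 220 genes that missed only the HD3dif minimum and does not stand for them. The 3 genes nearest outside that minimum had 4.895, 4.725 and 4.713 CPM in HD3dif. Their DT40 levels were 2.41, 1.06 and 1.11 times those of HD3dif.

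The number of members depended on how levels were scaled and on the minimum. With effective library sizes from TMM factors, the log2 difference of HD3dif from HD3pr shifted by -0.25 and that of DT40 from HD3pr by -0.14 for every gene. Under that scaling 28 of the 46 remained members. No other gene entered, and none could newly meet a fold limit because both shifts were negative. With levels per 1000000 of all reads, those not assigned to a single gene included, the shifts were -0.40 for HD3dif and 0.27 for DT40. Under that setting 15 genes met the rule, 11 of them among the 46. That setting also made the 5 CPM minimum harder to reach, because all reads outnumber those on genes. With the minimum lowered by the mean share of reads on genes, an alternative chosen after seeing the data, 28 genes met the rule, 24 of them among the 46. In 31 genes every library met each limit. They had to be among the 46, because limits met in every library are also met in the means. Leaving out 1 library at a time gave 43 to 49 genes, and 34 of the 46 were found in each of the 6 omissions.

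**Figure D4:**
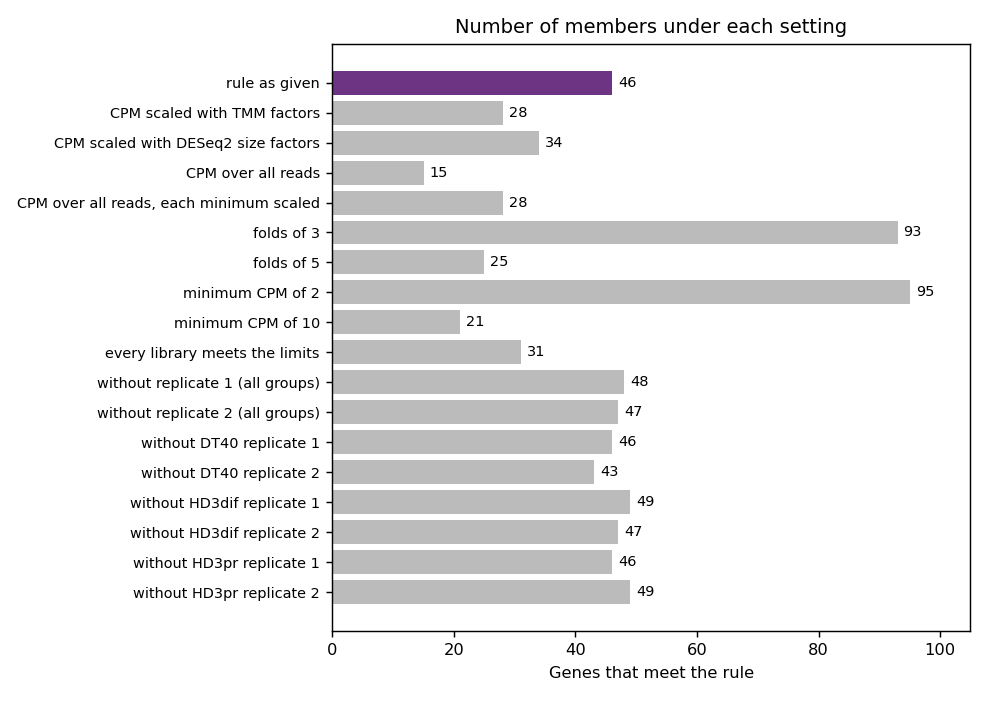
Number of genes that met the rule (bars, from 0) as given (purple, 46) and under each other setting (grey). Scaling and the size of the limits moved the count, between 15 with levels per 1000000 of all reads and 95 with a minimum of 2 CPM, and leaving out single libraries kept it between 43 and 49.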

How the data were processed

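The authors depleted total RNA of ribosomal RNA, made stranded libraries, aligned reads to galGal4 with TopHat2 2.0.12 under Ensembl release 82 and deposited raw HTSeq counts, 1 table of Ensembl genes per library. Versions come from the submitters' processing notes, and whether counting used strand is not given in the sources used here. Rows for reads not assigned to a single gene (no feature, 26.9 to 46.6% of reads, aligned to more than 1 place, and ambiguous) were left out of totals. The last 2 kinds can lie on genes. CPM is the count per 1000000 gene reads, averaged over 2 replicates.

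The quasi-likelihood test of edgeR 4.0.16 was run in R 4.3.3 on all 6 libraries, with TMM factors, 1 term per cell type and the 10898 genes above 1 CPM in at least 2 libraries, with Benjamini-Hochberg adjustment over all tested genes. Genes were called past 0.6 on the log2 scale at an adjusted p below 1e-07, the limits of the study. Descriptions used Python 3.11.15 and pandas 2.3.3.

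The members and lists were chosen with earlier results of these data known. The rule for named genes gave, without symbols, at most 2 identifiers at each end, and CARHSp1 and HBZ were named after their values were seen. Symbols of 27 region genes were attached through matching counts. Of 25635 genes in the reference table (GRCg7b), 0 carried an Ensembl identifier, so 41 gene lists, cell type markers and promoter motifs were not used here. Coverage tracks, 5C and C-TALE files were not used here.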

Additional observations from a re-analysis of the deposited data

How the results depend on the processing

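The number of members was 28 with TMM factors, 34 with DESeq2 size factors, 15 with CPM over all reads, 28 with CPM over all reads and each minimum scaled by the share of reads on genes (chosen after seeing the data), 93 with folds of 3, 25 with folds of 5, 95 with a minimum CPM of 2 and 21 with a minimum CPM of 10. Leaving out 1 library gave 43 to 49 members, and using a single replicate number 47 and 48. Members called higher in HD3dif than in HD3pr, 43 of 46, were 27 to 46 with 1 library left out, 37 with a replicate block and 46 with DESeq2 1.42.0. Called higher in DT40 than in HD3pr were 37 to 45 with 1 library left out and 42 with the block. Called higher in HD3dif than in DT40 were 2 with any library left out, 9 with an adjusted p below 0.05 and no fold limit, and 4 with library totals or no filter on low counts. Called lower were 11 to 14 with 1 library left out and 30 with an adjusted p below 0.05 and no fold limit, beside 45.8% of tested genes higher and 43.5% lower under that limit. A lone library left in a cell type was assumed to vary like the others. The replicate block left 2 higher and 14 lower between HD3dif and DT40. Libraries of the same replicate number showed no shared shift over the tested genes as a whole. Their deviations correlated at -0.03 between HD3dif and HD3pr, -0.06 between HD3dif and DT40 and 0.05 between DT40 and HD3pr. Such a correlation cannot exclude pairing that touched only some genes. The gene lists and promoter motifs were not run. The cause of these moves was not tested. Apart from those at an adjusted p below 0.05, counts of called members under other settings stand without the share of all genes called there. For them a change in the members cannot be told from a change in calls over all genes.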
